A study of Mus musculus with 16 samples.

Results

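The 35 genes described here encode the fibrous matrix of the ovarian stroma and the receptors, surface proteins and transcription factors that mark its fibroblast-like cells. They were named as a list, and each was followed through the probe set with the highest mean among those annotated to it. Of the 35 genes, 31 passed a filter on low signals and were tested, among 12172 genes tested in all. Periostin (Postn), Fbln5 and Mfap5 had probe sets under the filter, with mean signals of 16.1, 8.68 and 17.6, and Fbn1 had no probe set under that symbol in the annotation used here. Growing follicles are enclosed by a basement membrane, and outside it lie theca cells and stromal fibroblasts in an interstitial matrix of fibrillar collagens, collagen VI microfilaments, small proteoglycans and elastic fibres. Fibroblasts secrete the collagens as precursors, enzymes such as Lox cross-link the assembled fibres, and proteoglycans such as decorin bind to their surface. Granulosa cells and the oocyte lie inside the basement membrane, and RNA of whole follicles does not tell which cells a signal came from.

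The RNA came from cultured follicles of C57BL/6Tac mice, and the cultures tested anti-Müllerian hormone (AMH), a TGF-β family hormone made by the granulosa of small follicles. Preantral to small antral follicles were dissected from females aged 8 weeks by the sample labels and 6 to 8 weeks by the design text, and the follicles of 8 mice formed the pool of each experiment. The 4 groups of 4 arrays were follicles with 50 ng/ml recombinant AMH for 12 h, untreated controls for 12 h, follicles with 50 ng/ml AMH for 24 h and untreated controls for 24 h, with 6 to 9 follicles per sample. All groups, controls included, received 80 IU/L follicle-stimulating hormone and 10 IU/L luteinizing hormone. The question asked was which of these genes differ with AMH at each time. Both arms of a numbered experiment were drawn from one pool, and each AMH array was therefore set against the control array of its own experiment, which gave 4 pairs per time. The sources used here do not say that the 12 h and 24 h experiments of one number shared a pool.

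Signals are Affymetrix intensities on a linear scale, and changes are differences of log2(signal + 1.46), a scale on which the changes of genes with low signals come out too small. The median signal per array lay between 27.8 and 40.2. The mean log2 signal of 14 oocyte markers exceeded 8.5 on 3 arrays, namely AMH 24 h replicate 1 at 8.73, control 12 h replicate 3 at 9.28 and control 24 h replicate 4 at 8.87, and counts of the 31 genes that moved by over 1.5 times without these arrays are given both ways. Replicate 1 held the lowest value of its group for 22 of the 31 genes with AMH at 12 h and for 19 of 31 in controls at 12 h. Replicate 4 held the lowest value for 17 of 31 with AMH at 24 h. In bulk RNA of whole follicles, fewer stromal cells and less RNA per stromal cell cannot be told apart.

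The genes spanned a wide range of signals. Sparc, a collagen-binding matricellular protein, had the highest mean signal, 3276, and the narrowest span, 1.35-fold from the lowest to the highest of the 16 arrays. Lox, which cross-links collagen and elastin, spanned 37.7-fold, and its spread within groups, a log2 SD of 1.08, stood at the 99.3rd percentile of all genes tested. Lum spanned 14.5-fold, Ogn 9.47-fold and Dcn 7.49-fold. Probe sets differ in their response, so signals were compared between arrays and not between genes.

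After 12 h and after 24 h, most of the stromal matrix genes lay higher with AMH than in the paired control, yet none of the 31 passed the threshold in any AMH comparison. At 12 h the change was above 0 for 22 of 31 genes, with a median of 0.24, where 52% of all genes tested lay above 0 with a median of 0.0087. At 24 h it was above 0 for 29 of 31, with a median of 0.41, against 51.6% and a median of 0.006 over all genes. Quantile normalization or median centring left 21 of 31 above 0 at 12 h and 31 of 31 at 24 h, with Fbln1 at 12 h and Sparc and Pcolce at 24 h changing sign. Of 28 other probe sets for 19 of the genes, 18 had the sign of the chosen one at 12 h and 25 at 24 h, and both others of Fbln1 were below 0 at 12 h (-0.49 and -0.50). The 7 genes above 0 in all 8 pairs were Col1a2, Col5a1, Col5a2, Col6a2, Eln, Emilin1 and Mmp2, and 72 of all 12172 genes, or 0.592%, met the same condition. No gene of the list was below 0 in all 8, against 0.197% of all genes. By limma with Benjamini-Hochberg adjustment, the genes called at 12 h were 0 of 31 and 0% of all genes, and at 24 h 0 of 31 and 0.0164% of all genes. In the mean of both times they were 0 of 31 and 0% of all genes.

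At an unadjusted p under 0.05, 8 of 31 genes were higher with AMH at 12 h, against 4.35% of all genes. At 24 h the count was 16 of 31 against 2.92%, and in the mean of both times 16 of 31 against 3.73%. None of the 31 was lower with AMH at that level, against 2.12% at 12 h, 1.16% at 24 h and 1.08% in the mean. All 4 pairs lay above 0 for 12 of 31 genes at 12 h (10.2% of all genes) and for 10 of 31 at 24 h (5.95%), and below 0 for 2 (7.71%) and 0 (3.44%). The AMH arrays all lay above all controls for 2 of 31 genes at 12 h (1.64%) and for 3 of 31 at 24 h (1.46%). These counts depended on single pairs and on the fit. At 24 h the 16 became 5 without replicate 2, 10 without replicate 3, 11 without replicate 1 and 6 with no replicate block. Of all genes, 337, 347, 935 and 341 met that level there, against 355 higher and 141 lower with all arrays. The 16 rose to 20 without replicate 4 (1017 of all genes) or with median centring (649). It rose to 19 with array weights (1467) and 18 with the oocyte mean as a covariate (729). In the mean the 16 became 10 without replicate 2 (355 of all genes) and 20 with array weights (1344). At 12 h the 8 became 15 without the oocyte-rich arrays and their partners, 13 with only the 12 h arrays in the fit and 4 with no replicate block. Of all genes, 1467, 1125 and 576 met that level there, against 530 higher and 258 lower genes with all arrays. The pairs did not contribute equally. At 12 h the median over the 31 genes was 0.24, 0.18, 0.21 and 0.38 in pairs 1 to 4, while at 24 h it was 0.34, 0.88, 0.28 and 0.03. Pair 2 at 24 h thus had the largest median and pair 4 at 24 h the smallest, with 26 and 16 of the 31 genes above 0.

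**Figure D1:**
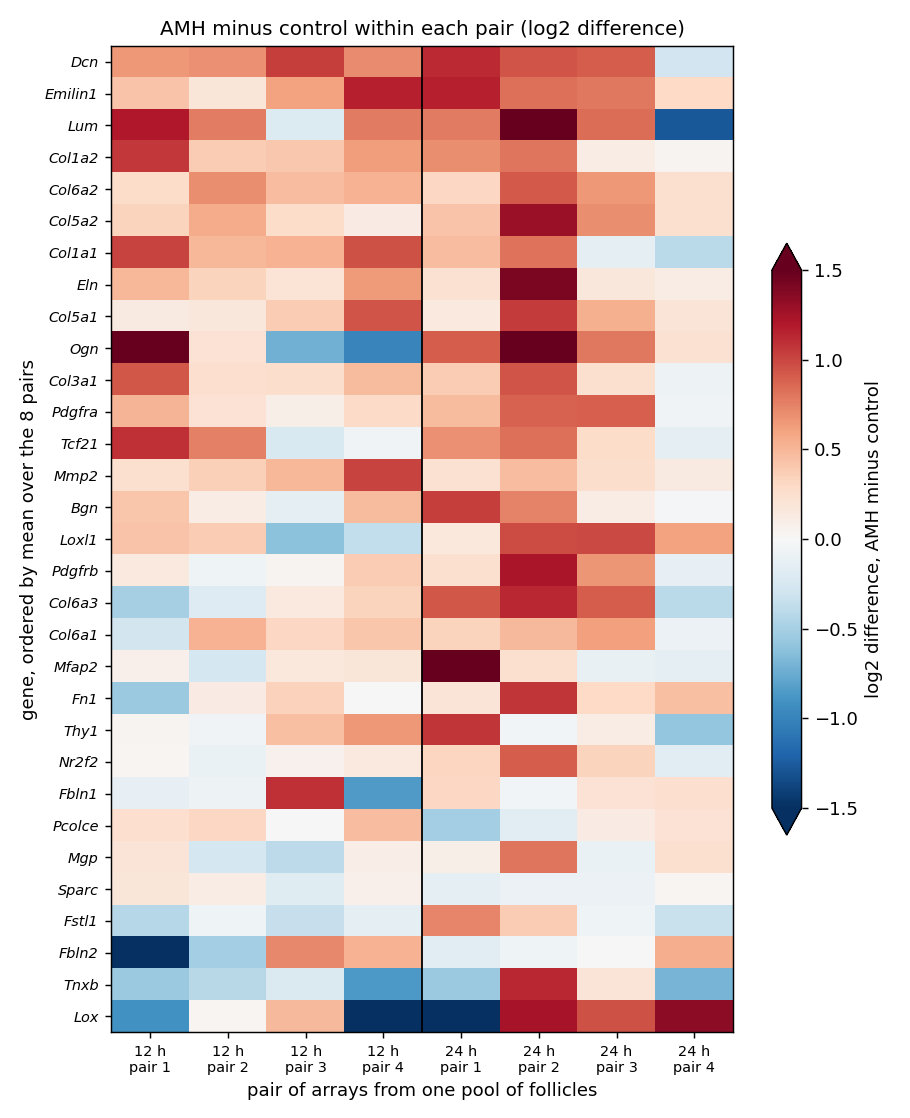
Difference of log2 signal between AMH-treated and control follicles within each of the 8 pairs (columns, 4 at 12 h left of the line and 4 at 24 h right of it) for the 31 measured genes (rows, ordered by their mean), with red for higher with AMH and blue for lower, and colours saturating at 1.5. The upper rows are red in most columns, pair 2 at 24 h is the strongest column with a median of 0.88, and pair 4 at 24 h is mixed, with 16 of 31 genes above 0.

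The 5 fibrillar collagen genes all lay above 0 at both times, with medians of 0.48 at 12 h and 0.41 at 24 h, and none passed the threshold. Col1a2, the α2 chain of type I collagen, had signals of 1126, 1524, 1772 and 1539 in AMH-treated follicles at 12 h, against 539, 1170, 1341 and 995.5 in their controls. At 24 h it had 2446, 2460, 2425 and 1568 with AMH, against 1512, 1413, 2247 and 1528 in controls. AMH was the higher arm of every pair, and the groups overlapped at both times. Its change was 0.62 (SE 0.15, adjusted p = 0.446) at 12 h, 0.41 (SE 0.15, adjusted p = 1) at 24 h and 0.51 (SE 0.11, adjusted p = 0.586) in the mean of both times. Col1a1, the α1 chain of the same collagen, had 529, 808, 935 and 859 in AMH-treated follicles at 12 h, against 261, 573, 649.6 and 443 in their controls. After 24 h the signals were 975, 1284, 1120 and 781 with AMH, against 709, 727, 1243 and 1033 in controls. AMH was higher in 4 of 4 pairs at 12 h but in 2 of 4 at 24 h, where pairs 3 and 4 were below 0. The changes were 0.75 (SE 0.18, adjusted p = 0.446) at 12 h and 0.18 (SE 0.18, adjusted p = 1) at 24 h. A second probe set of Col1a1 gave 0.72 at 12 h and 0.51 at 24 h.

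Col3a1, the chain of type III collagen that co-assembles with type I fibrils, had 908.5, 1301, 1452 and 1373 in AMH-treated follicles at 12 h, against 476, 1095, 1210 and 991 in their controls. Its 24 h signals were 1855, 2529, 2161 and 1411 with AMH, against 1428, 1319, 1836 and 1493 in controls. All pairs but pair 4 at 24 h were above 0, and the mean change was 0.42 (SE 0.11, adjusted p = 0.815). Col5a1 and Col5a2 encode chains of type V collagen, which regulates fibril diameter. Col5a1 had 539.8, 594, 840.4 and 719 in AMH-treated follicles at 12 h, against 492, 529.6, 645 and 374 in their controls. At 24 h it had 643, 998, 957 and 522 with AMH, against 580.1, 483, 659 and 455 in controls. The 8 pairs were all above 0, with pair 2 at 24 h (1.04) and pair 4 at 12 h (0.94) the largest, and the mean change was 0.44 (SE 0.12, adjusted p = 0.815). Col5a2 had 139, 219, 259.9 and 200.2 in AMH-treated follicles at 12 h, against 109.5, 149, 214 and 184 in their controls. Its 24 h signals were 208, 329, 305.5 and 222 with AMH, against 155, 133, 188 and 187 in controls. At 24 h the lowest AMH array was above the highest control array, and the changes were 0.67 (SE 0.17, adjusted p = 0.813) at 24 h and 0.49 (SE 0.12, adjusted p = 0.719) in the mean of both times. A second probe set of Col5a2 gave smaller changes, -0.072 at 12 h and 0.18 at 24 h.

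Collagen VI forms beaded microfilaments around cells and between larger fibres, from chains encoded by Col6a1, Col6a2 and Col6a3. Col6a2 had the smallest p of the 31 genes at 24 h and in the mean of both times. Its signals were 293, 635, 766 and 714 in AMH-treated follicles at 12 h, against 242, 390.3, 558 and 499 in their controls. At 24 h they were 739.5, 1167, 1278 and 806 with AMH, against 596.5, 614, 813 and 683 in controls. AMH was higher in 8 of 8 pairs, by log2 differences of 0.28, 0.70, 0.46 and 0.52 at 12 h and 0.31, 0.93, 0.65 and 0.24 at 24 h, although the groups overlapped. The changes were 0.53 (SE 0.13, adjusted p = 0.652) at 24 h and 0.51 (SE 0.0894, adjusted p = 0.397), or 1.42-fold, in the mean of both times, with a 95% confidence interval of 0.31 to 0.71. A second probe set gave 0.42 at 12 h and 0.56 at 24 h.

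The other chains were less even across pairs. Col6a1 had 468, 758, 985 and 841.5 in AMH-treated follicles at 12 h, against 566, 529, 792 and 629.6 in their controls. After 24 h the signals were 1041, 1307, 1470 and 967 with AMH, against 822.5, 936, 956 and 1027 in controls. The AMH array was higher in 6 of 8 pairs, and the mean change was 0.29 (SE 0.10, adjusted p = 0.956). Col6a3 had 199, 239.5, 552 and 348 in AMH-treated follicles at 12 h, against 281, 273, 501 and 276 in their controls. Its 24 h signals were 264, 321, 446 and 208 with AMH, against 137, 145, 237.5 and 275 in controls. Pairs 1 and 2 at 12 h and pair 4 at 24 h lay below 0 while pairs 1 to 3 at 24 h lay between 0.91 and 1.14, and control 12 h replicate 3 stood far above the other controls of its group. Its change was -0.051 (SE 0.23, adjusted p = 0.991) at 12 h and 0.64 (SE 0.23, adjusted p = 0.967) at 24 h.

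The small leucine-rich proteoglycans bind collagen fibrils and growth factors of the TGF-β family. Decorin (Dcn) had signals of 311.5, 568, 581 and 495 in AMH-treated follicles at 12 h, against 198, 351, 283 and 304 in their controls. At 24 h it had 1413, 1357, 1492 and 698 with AMH, against 651.5, 703, 796.5 and 854 in controls. AMH was higher in 7 of 8 pairs, by log2 differences of 0.65, 0.69, 1.03 and 0.70 at 12 h and 1.11, 0.95, 0.90 and -0.29 at 24 h. At 24 h, AMH replicate 4 lay among the controls and the other 3 AMH arrays above all of them. The change was 0.77 (SE 0.20, adjusted p = 0.479) at 12 h, 0.67 (SE 0.20, adjusted p = 0.813) at 24 h and 0.72 (SE 0.14, adjusted p = 0.397), or 1.65-fold, in the mean of both times. Dcn passed the threshold under 3 alternatives. Its mean change was 0.89 without replicate 4 (limma, adjusted p = 0.0282), 0.80 without the oocyte-rich arrays and their partners (adjusted p = 0.0259), and 0.78 with arrays weighted by quality (adjusted p = 0.0261). Array weights also brought Col6a2 past it, at 0.58 (adjusted p = 0.0261).

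Lumican (Lum), biglycan (Bgn) and osteoglycin (Ogn) varied more. Lum was above 0 in 6 of 8 pairs, with a change of 0.58 (SE 0.27, adjusted p = 0.999) in the mean of both times, and its pair 4 at 24 h was at -1.27. Bgn had a mean change of 0.34 (SE 0.12, adjusted p = 0.959), with 6 of 8 pairs above 0. Ogn had a change of -0.0017 at 12 h, where its pairs ran between -0.99 and 1.49, and of 0.88 (SE 0.36, adjusted p = 1) at 24 h, where all 4 AMH arrays lay above all 4 controls.

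Among the proteins of elastic fibres and microfibrils, Emilin1, a glycoprotein at the interface of elastin and microfibrils, had the largest mean change. Its signals were 52.3, 60.2, 101 and 94.1 in AMH-treated follicles at 12 h, against 38.5, 53, 66.1 and 41.1 in their controls. At 24 h they were 132, 149.9, 232 and 134 with AMH, against 58.3, 84.1, 133 and 109 in controls. AMH was higher in 8 of 8 pairs, and the groups overlapped at both times. The changes were 0.59 (SE 0.20, adjusted p = 0.638) at 12 h, 0.77 (SE 0.20, adjusted p = 0.813) at 24 h and 0.68 (SE 0.14, adjusted p = 0.586), or 1.6-fold, in the mean of both times. Elastin itself (Eln) was above 0 in 8 of 8 pairs at low signals, between 18.4 and 51.8, with a mean change of 0.45 (SE 0.18, adjusted p = 0.992). Mfap2, a microfibril protein, had a change of 0.49 (SE 0.29, adjusted p = 1) at 24 h that came mainly from pair 1, at 1.96 against -0.14 to 0.25 in the other pairs. Fbln1 and Fbln2, fibulins of matrix fibres and basement membranes, had mean changes of 0.099 and -0.093, and Fbln2 was above 0 in 3 of 8 pairs.

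The enzymes that process the matrix did not share a direction. Mmp2, the gelatinase that cleaves denatured collagen and type IV collagen, had 438, 484, 599 and 643 in AMH-treated follicles at 12 h, against 371, 376, 424.5 and 318 in their controls. Its 24 h signals were 496, 652, 642 and 534 with AMH, against 423, 473, 536 and 487 in controls. All 8 pairs were above 0, and at 12 h the lowest AMH array exceeded the highest control array, with a change of 0.53 (SE 0.13, adjusted p = 0.458). A second probe set of Mmp2 gave 0.05 at 12 h, so that change rests on 1 of its 2 probe sets. Loxl1, a cross-linking enzyme of elastin, had 109.9, 154, 206 and 267 in AMH-treated follicles at 12 h, against 81.2, 118, 318 and 345 in their controls. After 24 h the signals were 235, 382, 364 and 341 with AMH, against 210.3, 193, 182 and 224.5 in controls. At 24 h the AMH arrays all lay above the controls, while at 12 h the pairs were split, and the changes were -0.045 (SE 0.20, adjusted p = 0.991) at 12 h and 0.68 (SE 0.20, adjusted p = 0.813) at 24 h.

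Lox had 132, 250.1, 61.6 and 66.1 in AMH-treated follicles at 12 h, against 247.5, 245, 43.5 and 524 in their controls. At 24 h it had 12.5, 61.5, 55.9 and 52.8 with AMH, against 64.4, 25.3, 28.1 and 19.9 in controls. Its pairs ran from -2.96 to 1.35, the widest span of the 31 genes, and 5 of 8 were above 0. Pcolce, which speeds the removal of the procollagen C-propeptide, had 2156, 2168, 1939 and 2012 in AMH-treated follicles at 12 h, against 1804, 1750, 1937 and 1461 in their controls. Its 24 h signals were 2146, 2906, 2572 and 2423 with AMH, against 3051, 3269, 2358 and 2088 in controls. AMH was higher in all pairs at 12 h, by 0.002 to 0.46, and in 2 of 4 at 24 h, with changes of 0.26 (SE 0.12, adjusted p = 0.778) and -0.084 (SE 0.12, adjusted p = 1).

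The matricellular and adhesive proteins had medians of -0.09 at 12 h and 0.18 at 24 h. Sparc had a mean change of -0.012 (SE 0.0549, adjusted p = 0.999), with a 95% confidence interval of -0.13 to 0.11, and its sign turned under quantile normalization and median centring. Fibronectin (Fn1) was at -0.024 at 12 h and 0.50 (SE 0.18, adjusted p = 0.967) at 24 h, above 0 in 4 of 4 pairs at 24 h. Tenascin-X (Tnxb), which links collagen fibrils, and Fstl1, a secreted follistatin-like glycoprotein, were the 2 genes below 0 in all 4 pairs at 12 h, against 7.71% of all genes. Tnxb had 15.3, 13.3, 19.9 and 17.7 in AMH-treated follicles at 12 h, against 23.2, 18.2, 23.4 and 33.4 in their controls. After 24 h the signals were 60.3, 98.7, 39.9 and 42.7 with AMH, against 89.2, 44.4, 34.6 and 69.8 in controls. Its changes were -0.51 (SE 0.30, adjusted p = 0.806) and 0.019 (SE 0.30, adjusted p = 1). Matrix Gla protein (Mgp), an inhibitor of calcification, was at 0.083 in the mean of both times.

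The 5 genes that mark stromal cells rather than matrix were all above 0 at both times, with medians of 0.27 at 12 h and 0.41 at 24 h, and none passed. Pdgfra, a receptor for platelet-derived growth factors on stromal and theca precursor cells, had a mean change of 0.41 (SE 0.11, adjusted p = 0.815) and was above 0 in 7 of 8 pairs. Pdgfrb, the related receptor on pericytes and fibroblasts, was at 0.31 and the surface glycoprotein Thy1 at 0.21. The transcription factor Nr2f2 was at 0.19. Tcf21, a transcription factor of gonadal stromal progenitors, had 147, 160.5, 159 and 136 in AMH-treated follicles at 12 h, against 67.9, 94.7, 187 and 142 in their controls. Its 24 h signals were 332, 311, 380 and 256 with AMH, against 206, 175, 314 and 281 in controls. With 5 of 8 pairs higher with AMH, the mean change was 0.40 (SE 0.16, adjusted p = 0.999).

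Whether the AMH difference itself changed between 12 h and 24 h was tested as an interaction. None of the 31 genes passed, nor did any of the 12172 genes (0%), by limma with Benjamini-Hochberg adjustment. At an unadjusted p under 0.05 there was 1 gene, Loxl1, with a difference of 0.73 (SE 0.29, adjusted p = 0.837), against 5.64% of all genes, and 22 of 31 differences were above 0, against 49.5%. The 1 became 10 without the oocyte-rich arrays and their partners, where 1548 of all genes met that level, against 687 with all arrays. It became 9 with array weights (1494 of all genes), 6 with median centring (669), 5 without replicate 4 (1297) and 5 with the oocyte mean as a covariate (889). It became 3 without replicate 1 (795), 2 without replicate 3 (525), with no filter (999 of 18193) or with probe sets averaged (779), and 0 with no replicate block (474). Col1a1 followed at -0.57 (SE 0.26, adjusted p = 0.879), a larger AMH difference at 12 h, and Col6a3 at 0.70 (SE 0.33, adjusted p = 0.879), a larger one at 24 h. A second probe set of Col1a1 gave a smaller difference, -0.21.

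Between 12 h and 24 h of culture, 3 of the 4 proteoglycan genes, the microfibril gene Emilin1, Col6a1, Tnxb and Tcf21 rose in both arms. In AMH-treated follicles 7 of the 31 genes were higher at 24 h and 0 were lower, where 4.34% of all genes were called higher and 3.94% lower. In control follicles 11 of 31 were higher and 1 was lower, against 9.96% and 9.19% of all genes. With each array centred on its median, a scaling that moved the median change of all genes in controls to -0.19, 7 of the 31 were higher and 2 lower (Lox and Col6a3) in controls, and 24.5% of all genes called there were higher. The 7 genes called in AMH-treated follicles, Dcn, Lum, Bgn, Tcf21, Tnxb, Emilin1 and Col6a1, were also called higher in controls, where 3.31% of all genes were called higher in both arms. Without regard to a test, 25 of 31 changes lay above 0 with AMH and 21 of 31 in controls, against 48.1% and 48.6% of all genes. At 24 h all arrays lay above all 12 h arrays for 8 of 31 genes with AMH (7.47% of all genes) and for 8 of 31 in controls (11.4%), and below them for 1 (7.65%) and 0 (10.9%). Median centring turned Fbln1 and Sparc with AMH, and Col5a1, Col5a2, Loxl1 and Sparc in controls, to the other side of 0, and quantile normalization turned Nr2f2 in controls. Each of these changes compares the 4 arrays of one time with the 4 of the other, and where the pools differed, culture time cannot be told apart from that difference.

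**Figure D2:**
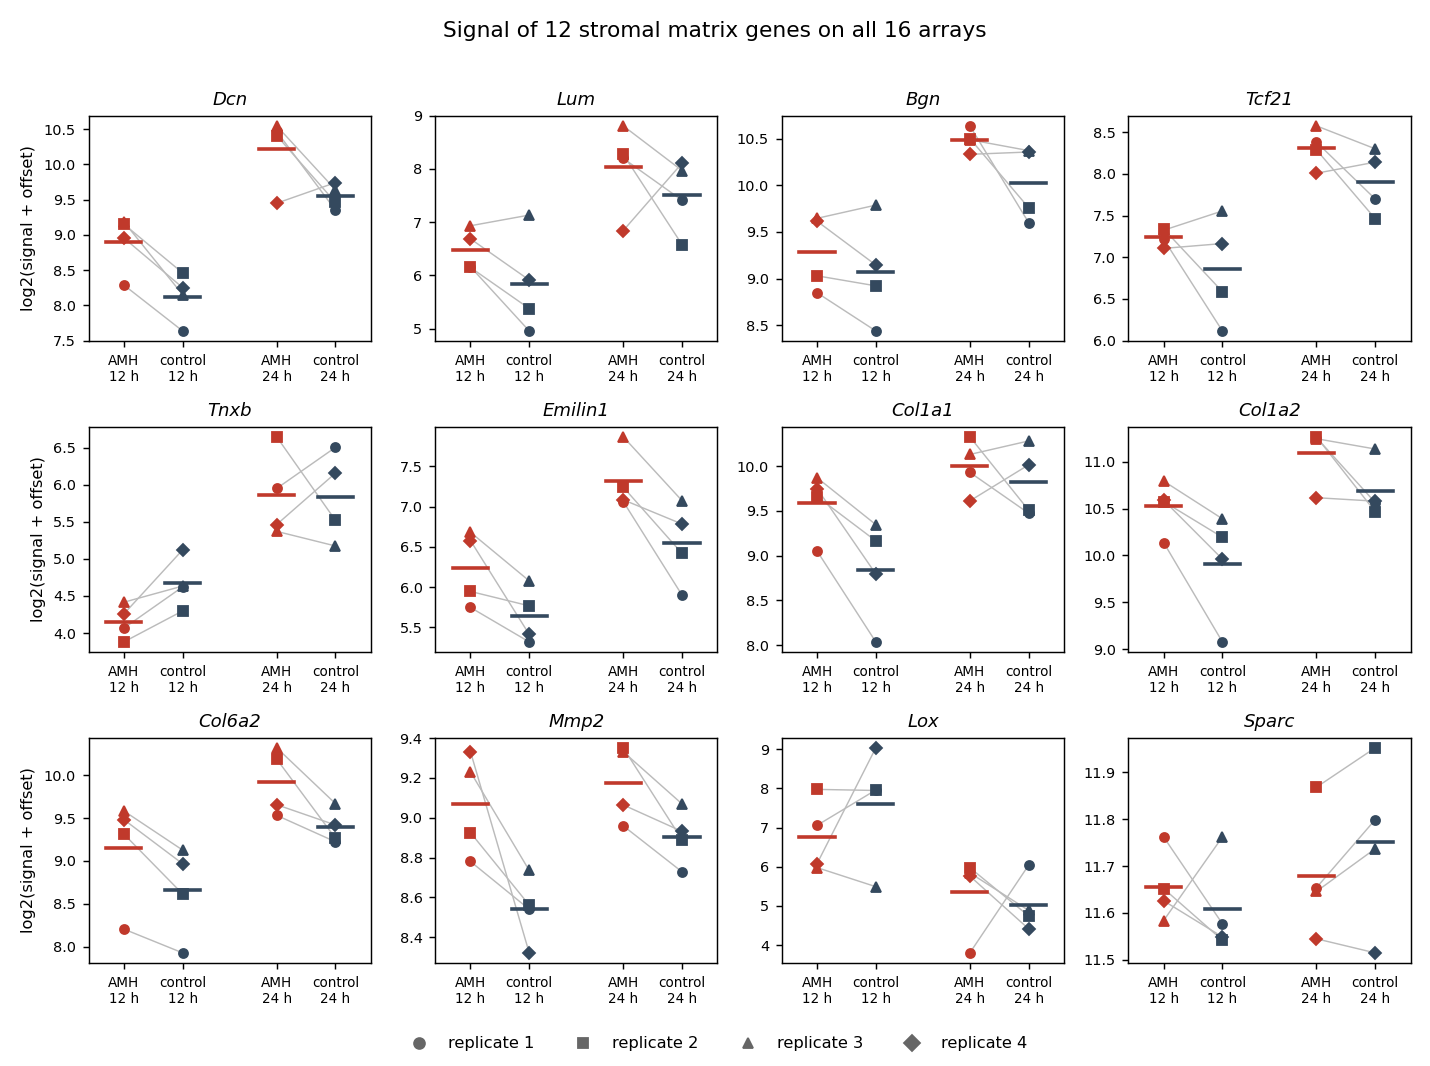
Log2 signal of 12 of the genes on all 16 arrays, with AMH in red and control in blue, replicate numbers by symbol, grey lines joining the paired arrays, and bars at the group means (n = 4 each). Dcn, Bgn, Tcf21 and Tnxb sit higher at 24 h than at 12 h in both arms, Lox sits lower at 24 h, and Sparc spans only 1.35-fold over all arrays.

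Dcn had the smallest p of the 31 genes in both arms. Its mean log2 signal was 10.22 ± 0.51 at 24 h and 8.90 ± 0.42 at 12 h with AMH (SD, n = 4 each), and 9.55 ± 0.18 at 24 h and 8.13 ± 0.35 at 12 h in controls. All 24 h arrays exceeded all 12 h arrays of their arm. The change was 1.32 (SE 0.24, adjusted p = 0.00351), or 2.5-fold, with AMH and 1.42 (SE 0.24, adjusted p = 0.001), or 2.68-fold, in controls by limma. Lum averaged 8.03 ± 0.84 at 24 h and 6.48 ± 0.39 at 12 h with AMH, and 7.52 ± 0.69 at 24 h and 5.84 ± 0.94 at 12 h in controls. The groups overlapped in both arms, through AMH 24 h replicate 4 and control 12 h replicate 3. Its changes were 1.55 (SE 0.46, adjusted p = 0.0489) with AMH and 1.67 (SE 0.46, adjusted p = 0.0191) in controls. Bgn rose by 1.21 (SE 0.25, adjusted p = 0.00811) with AMH and by 0.95 (SE 0.25, adjusted p = 0.0156) in controls, and its other 2 probe sets gave changes between 1.12 and 1.49. Ogn, the fourth proteoglycan, did not pass in either arm, at 1.16 (SE 0.50, adjusted p = 0.164) and 0.28 (SE 0.50, adjusted p = 0.732).

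The signals behind these calls can be read per array. Lum had 292, 308, 447 and 113 with AMH at 24 h, against 70.1, 69.5, 121 and 101.5 with AMH at 12 h. In controls it had 169, 94, 249 and 274.5 at 24 h, against 29.5, 40.1, 139 and 58.8 at 12 h. The lowest AMH array at 24 h and the highest control array at 12 h lie inside the range of the other time. Bgn had 1595, 1452, 1438 and 1290 with AMH at 24 h, against 459, 521, 800.2 and 783 with AMH at 12 h. In controls it had 775, 866, 1327 and 1313 at 24 h, against 345, 483, 883 and 565 at 12 h. With AMH its times do not overlap, and in controls they overlap through replicate 3 at 12 h.

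With the chosen probe sets, type I and type III collagen genes passed in controls and not in AMH-treated follicles. Col1a1 averaged 9.82 ± 0.40 at 24 h and 8.84 ± 0.58 at 12 h in controls, with no overlap, and rose by 0.98 (SE 0.27, adjusted p = 0.0164), or 1.98-fold. With AMH its change was 0.42 (SE 0.27, adjusted p = 0.367). A second probe set of Col1a1 passed in neither arm, at 0.67 (limma adjusted p = 0.111) in controls and 0.45 with AMH. Second probe sets of Col1a2 (1.47, adjusted p = 0.00781) and Col3a1 (1.41, adjusted p = 0.0183) passed in controls and not with AMH. Col1a2 rose by 0.78 (SE 0.24, adjusted p = 0.034) in controls and had 0.57 (SE 0.24, adjusted p = 0.16) with AMH. Col3a1 rose by 0.76 (SE 0.25, adjusted p = 0.0423) in controls and had 0.65 (SE 0.25, adjusted p = 0.117) with AMH. The difference between the arms is the interaction given above, and it did not pass for Col1a1, Col1a2 (-0.21 (SE 0.21, adjusted p = 0.95)) or Col3a1 (-0.11 (SE 0.22, adjusted p = 0.981)). The type V genes moved little, with Col5a1 at 0.18 with AMH and 0.10 in controls, and Col5a2 at 0.38 and 0.042.

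Within collagen VI, Col6a1 rose by 0.68 (SE 0.20, adjusted p = 0.0428) with AMH and by 0.58 (SE 0.20, adjusted p = 0.0474) in controls. Col6a2 had changes of similar size that did not pass, 0.78 (SE 0.29, adjusted p = 0.109) and 0.74 (SE 0.29, adjusted p = 0.0868). Col6a3 lay the other way in controls, at -0.75 (SE 0.32, adjusted p = 0.111), and at -0.056 with AMH, and it did not pass either.

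Tnxb, from low signals at 12 h, rose by 1.70 (SE 0.32, adjusted p = 0.00431) with AMH and by 1.17 (SE 0.32, adjusted p = 0.0187), or 2.25-fold, in controls, with no overlap in either arm. Its AMH arrays at 12 h had a mean log2 signal of 4.16, under the level of the filter (4.18), so the gene passed that filter through the other groups and its change with AMH rests on signals near the floor. Emilin1 rose by 1.08 (SE 0.28, adjusted p = 0.0278) with AMH and by 0.90 (SE 0.28, adjusted p = 0.0356) in controls. Tcf21 rose by 1.07 (SE 0.25, adjusted p = 0.017), or 2.09-fold, with AMH and by 1.04 (SE 0.25, adjusted p = 0.00955), or 2.06-fold, in controls. The other stromal markers did not pass, with Pdgfra at 0.75 (SE 0.25, adjusted p = 0.07) with AMH and 0.48 in controls, Pdgfrb at -0.10 and -0.48, Thy1 at -0.46 and -0.33, and Nr2f2 at 0.26 and -0.049. With the chosen probe sets and main settings, Tcf21 was thus the one of these 5 markers that was called, and the receptors and Thy1 lay on both sides of 0. A second probe set of Pdgfra passed with AMH, at 0.97 (limma adjusted p = 0.0421), and not in controls, at 0.35. Another passed in neither arm, at 0.18 and 0.28. Pdgfra also passed with array weights (adjusted p = 0.0278 with AMH and 0.00737 in controls). With AMH but not in controls, it passed with the replicate block, without the oocyte-rich arrays and with the oocyte covariate.

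Among the enzymes, Pcolce rose by 0.61 (SE 0.14, adjusted p = 0.0056), or 1.53-fold, in controls with no overlap. With AMH its change was 0.27 (SE 0.14, adjusted p = 0.235). A second probe set of Pcolce rose in both arms (limma adjusted p = 0.0185 with AMH and 0.000589 in controls). Pcolce also passed with AMH under quantile normalization (adjusted p = 0.0388) or with probe sets averaged (adjusted p = 0.046). Its difference between the arms, -0.34 (SE 0.17, adjusted p = 0.893), did not pass. Lox was the one gene that fell. In controls its mean log2 signal was 5.02 ± 0.71 at 24 h and 7.61 ± 1.5 at 12 h (SD, n = 4 each), and it was 6.01-fold lower at 24 h, a change of -2.59 (SE 0.67, adjusted p = 0.013). The groups overlapped, because control replicate 3 had a signal of 43.5 at 12 h, within the 24 h range of 19.9 to 64.4. A second probe set of Lox gave -2.63 in controls and -1.18 with AMH. With AMH the change was -1.43 (SE 0.67, adjusted p = 0.204), and all 4 AMH arrays at 24 h lay below all 4 at 12 h.

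**Figure D3:**
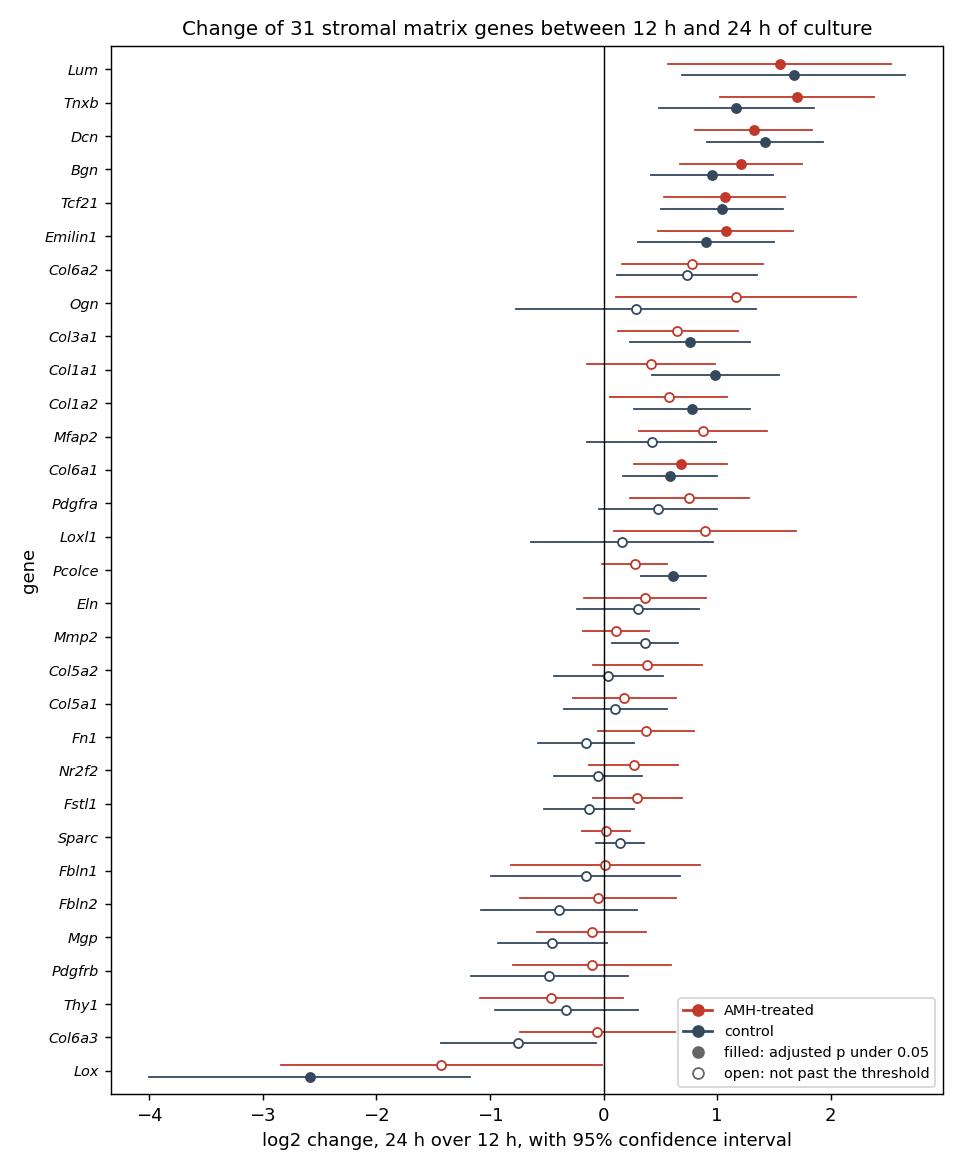
Change of the 31 genes between 12 h and 24 h, as the log2 difference 24 h over 12 h with its 95% confidence interval, for AMH-treated follicles (red, above) and controls (blue, below), with filled points for an adjusted p under 0.05. Dcn, Lum, Bgn, Tnxb, Tcf21 and Emilin1 stand near the top with filled points in both arms, and Lox at the bottom is filled in controls only, with a test of the difference between the arms at 1.16 (SE 0.88, adjusted p = 0.944).

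Over 15 settings each, Dcn was called in both arms in every one, Tnxb in every one with AMH and Pcolce in every one in controls. With AMH, Bgn was lost without replicate 2, Tcf21 without replicate 2, 3 or 4, and Col6a1, Lum and Emilin1 without any 1 of the 4 replicates, so that 2 to 4 of the 7 calls were left. Lum and Col6a1 were also lost there with no filter, Lum with robust moderation and Col6a1 with median centring. In controls, without replicate 4 the calls were 3 of 31 (Dcn, Pcolce and Tcf21), and without replicate 2 they were 6 of 31, with Lox among those lost both times. Without replicate 1 there were 7, with Tcf21, Lum, Tnxb, Col1a2 and Col3a1 lost, and without replicate 3 there were 10, with Col1a2, Col3a1 and Emilin1 lost and Fbln1 added as lower, at -0.75 (adjusted p = 0.0394). Control calls were also lost for Col1a2, Col3a1, Col6a1 and Emilin1 with median centring, for Emilin1 with quantile normalization, and for Col3a1 and Col6a1 with no filter. Without the 3 oocyte-rich arrays, 8 genes were higher with AMH, and in controls 8 were higher and 1 lower, with Tnxb, Emilin1 and Col6a1 lost. Over all 31 genes, called or not, there were 28 other probe sets for 19 genes. They had the sign of the chosen one in 25 of 28 cases with AMH and 22 of 28 in controls.

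Of the 11 genes called higher over time in controls, 4 were picked by hand, of which Col1a2 was not called with AMH. The sequences upstream of these 4 genes are shown. They are RefSeq windows on GRCm38.p6, from 250 bases before to 50 bases after the annotated start, and 22 of the 35 genes had an entry. Capitals mark 4 motifs that were searched for on both strands. The TATA box was searched as TATAAA and was in 13.6% of 32851 promoters of this length, against 3 of the 27 entries (11.1%) for the listed genes. The CCAAT box was in 37.4% of all promoters and in 22.2% of the 27. The GC box, searched as GGGCGG, was in 35.7% and 44.4%. A core of SMAD-binding sites, searched as CAGAC, was in 49.6% and 63%, and SMAD proteins are the intracellular effectors of the TGF-β family.
Col1a2, chr6:4505368-4505667, plus strand: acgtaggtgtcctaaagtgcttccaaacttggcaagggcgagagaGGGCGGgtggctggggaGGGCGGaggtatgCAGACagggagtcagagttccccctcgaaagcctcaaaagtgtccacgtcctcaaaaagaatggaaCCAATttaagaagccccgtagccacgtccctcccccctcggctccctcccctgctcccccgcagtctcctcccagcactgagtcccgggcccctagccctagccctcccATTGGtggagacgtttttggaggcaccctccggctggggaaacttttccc
Emilin1, chr5:30913536-30913835, plus strand: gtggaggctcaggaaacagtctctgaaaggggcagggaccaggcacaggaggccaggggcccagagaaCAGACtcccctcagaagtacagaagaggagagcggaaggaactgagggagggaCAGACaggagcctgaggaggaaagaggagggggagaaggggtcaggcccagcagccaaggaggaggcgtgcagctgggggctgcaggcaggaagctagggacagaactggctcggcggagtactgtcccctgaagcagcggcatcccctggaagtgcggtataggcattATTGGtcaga
Bgn, chrX:73483351-73483650, plus strand: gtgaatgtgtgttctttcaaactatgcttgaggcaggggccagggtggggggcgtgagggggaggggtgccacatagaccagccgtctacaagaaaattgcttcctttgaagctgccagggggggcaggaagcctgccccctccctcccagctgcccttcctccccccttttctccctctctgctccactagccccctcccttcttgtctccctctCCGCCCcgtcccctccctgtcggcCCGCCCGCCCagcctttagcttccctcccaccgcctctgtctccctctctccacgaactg
Tcf21, chr10:22820094-22820393, minus strand: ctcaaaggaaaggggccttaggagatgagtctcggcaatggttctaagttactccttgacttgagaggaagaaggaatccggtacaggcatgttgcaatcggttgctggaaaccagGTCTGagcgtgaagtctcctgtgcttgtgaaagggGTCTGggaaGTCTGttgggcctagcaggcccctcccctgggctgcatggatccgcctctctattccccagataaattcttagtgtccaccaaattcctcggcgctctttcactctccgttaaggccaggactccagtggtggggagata
The Col1a2 window held 2 CCAAT, 2 GGGCGG and 1 CAGAC match, the Emilin1 window 1 CCAAT and 2 CAGAC matches, the Bgn window 3 GGGCGG matches, of which 2 overlap, and the Tcf21 window 3 CAGAC matches. None of the 4 held TATAAA. A match is a run of letters and not a bound site, and no match says only that the letters are not in this window.

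Related genes of the same biology were counted in 3 further lists. Of 25 measured genes of other fibrous-matrix proteins, 0 were called between AMH and control, with medians of 0.15 at 12 h and 0.37 at 24 h, and 21 of 25 lay above 0 at 24 h, against 51.6% of all genes. Over time, 5 of 25 rose with AMH, against 4.34% of all genes, and 6 rose and 2 fell in controls, against 9.96% and 9.19%. Omd, a proteoglycan related to Ogn, rose by 2.19 (SE 0.42, limma adjusted p = 0.00453) with AMH and by 2.10 (SE 0.42, adjusted p = 0.00278) in controls. Ltbp2, a microfibril protein of the family named latent TGF-β binding proteins, rose by 1.53 (SE 0.28, adjusted p = 0.00344) with AMH and by 1.04 (SE 0.28, adjusted p = 0.0159) in controls. Col15a1, a collagen of basement membrane zones, rose by 1.18 with AMH and 1.19 in controls, and Efemp1, a fibulin, by 1.78 in controls.

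Most of the enzymes that modify and process collagen were not called. Of 19 measured, 0 were called with AMH against control or over time in AMH-treated follicles, and their medians were 0.0068 at 12 h and 0.098 at 24 h. In controls, Loxl3, a cross-linking enzyme, rose by 0.72 (SE 0.18, limma adjusted p = 0.0124), while the lysyl hydroxylase Plod3 fell by 0.58 (adjusted p = 0.0113) and the prolyl hydroxylase subunit P4ha1 fell by 0.63 (adjusted p = 0.0258). Of 18 measured ligands, receptors and transcription factors of the TGF-β and fibroblast programmes, 0 were called between AMH and control, with medians of 0.044 at 12 h and 0.30 at 24 h. Over time 1 of 18 rose with AMH, and 3 rose and 4 fell in controls, beside the same shares of all genes (4.34% with AMH, and 9.96% and 9.19% in controls). Snai2, a transcription factor of mesenchymal cells, rose by 1.41 (SE 0.15, adjusted p = 5.76e-05) with AMH and by 0.77 (SE 0.15, adjusted p = 0.00234) in controls. The ligand genes Pdgfc and Pdgfd rose by 1.03 and 1.14 in controls, and Ccn2, a matricellular TGF-β target, fell by 1.57 (adjusted p = 0.0113).

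Markers of other cell types were read beside these results. Summed over 34 stromal matrix genes, the signal lay between 21380 and 29720 with AMH and between 19970 and 24110 in controls at 24 h, and between 16730 and 22430 with AMH and between 14590 and 20980 in controls at 12 h. At 24 h, 8 of 8 measured immune markers were above 0 with AMH, with a median of 0.72 and sums of 510 to 1364 with AMH and 377 to 745 in controls, while Ptprc, Aif1 and Adgre1 were under the filter. Of 12 endothelial markers, 11 were above 0 at 24 h with a median of 0.30 (12 under median centring), and 1 at 12 h with a median of -0.40. Their sums at 24 h were 1181 to 2075 with AMH and 1057 to 1545 in controls. Of 9 granulosa markers, 7 were above 0 at 12 h, 6 at 24 h (8 under median centring) and 8 in the mean of both times, where their median was 0.22. Of 14 oocyte markers, 1 was above 0 with AMH at 12 h (0 to 2 under other scalings), 2 at 24 h (4 under median centring) and 0 in the mean, where their median was -0.12. Oocyte sums were 4595 to 6338 with AMH and 2606 to 12150 in controls at 12 h, and 3043 to 8834 with AMH and 3747 to 9364 in controls at 24 h. Of 8 surface epithelium markers, 1 was above 0 at 12 h, 3 at 24 h and 1 in the mean, where their median was -0.15, and other scalings gave 1 to 2, 2 to 4 and 2. Of 5 measured theca markers, 2 were above 0 at 12 h with a median of -0.058, and 4 at 24 h with a median of 0.125. Of 6 measured smooth muscle markers, 3 were above 0 at 12 h with a median of 0.054. At 24 h, 5 were above 0 with a median of 0.23 (6 under median centring). No marker of these cell types was called in an AMH comparison, and their part in the stromal differences was not tested.

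Over time, other compartments moved as well. Smooth muscle markers, which theca externa and vessel walls express, had all 6 measured genes above 0 in both arms, except that Myh11 in controls turned below 0 under quantile normalization and median centring. Myl9 rose by 1.65 with AMH and 2.08 in controls, and Mylk by 1.00 and 1.08, while Cnn1, Des, Lmod1 and Synpo2 were under the filter. The smooth muscle sums were 3410 to 4160 at 24 h and 1488 to 2018 at 12 h with AMH, and 2871 to 4094 at 24 h and 1033 to 2830 at 12 h in controls. Of 9 granulosa markers, 4 rose with AMH and 6 in controls, where 4.34% and 9.96% of all genes were called higher. Amh lay the other way, at -1.56 with AMH and -1.08 in controls, and was not called. The granulosa sums were 9039 to 16560 at 24 h and 3800 to 9028 at 12 h with AMH, and 8418 to 14270 at 24 h and 3149 to 6936 at 12 h in controls. Of 8 surface epithelium markers, 2 fell with AMH and 3 in controls, where 3.94% and 9.19% of all genes were called lower. Upk3b lay the other way, at 1.28 with AMH and 1.29 in controls, and was not called. The surface epithelium sums were 2452 to 3788 at 24 h and 4227 to 6939 at 12 h with AMH, and 2793 to 5259 at 24 h and 4747 to 7923 at 12 h in controls. Of 5 measured theca markers, Cyp17a1, a steroidogenic enzyme, rose with AMH by 2.61 (SE 0.44, limma adjusted p = 0.00205). In controls 0 were called, with Cyp17a1 at 0.63, and its difference between the arms, 1.98, did not pass. Of 14 oocyte markers 0 were called in either arm. Of 12 endothelial markers, 6 lay above 0 with AMH, with a median of -0.05 (5 under median centring), and 0 in controls, with a median of -0.58. Emcn was the 1 called, in controls, at -1.22 (SE 0.41, limma adjusted p = 0.0467). Of 8 immune markers, Csf1r fell by 2.05 (SE 0.33, adjusted p = 0.00154) with AMH and fell by 2.23 (SE 0.33, adjusted p = 0.000379) in controls, where Cd74 also fell by 1.74 (SE 0.42, adjusted p = 0.00899). Most immune markers lay the other way from Csf1r with AMH, where 6 of 8 were above 0, with a median of 0.35. In controls 1 of 8 was above 0, with a median of -0.20 (0 of 8 under median centring). Of all genes, 48.1% lay above 0 with AMH and 48.6% in controls. The part of these shifts in the rise of the matrix genes was not tested.

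**Figure D4:**
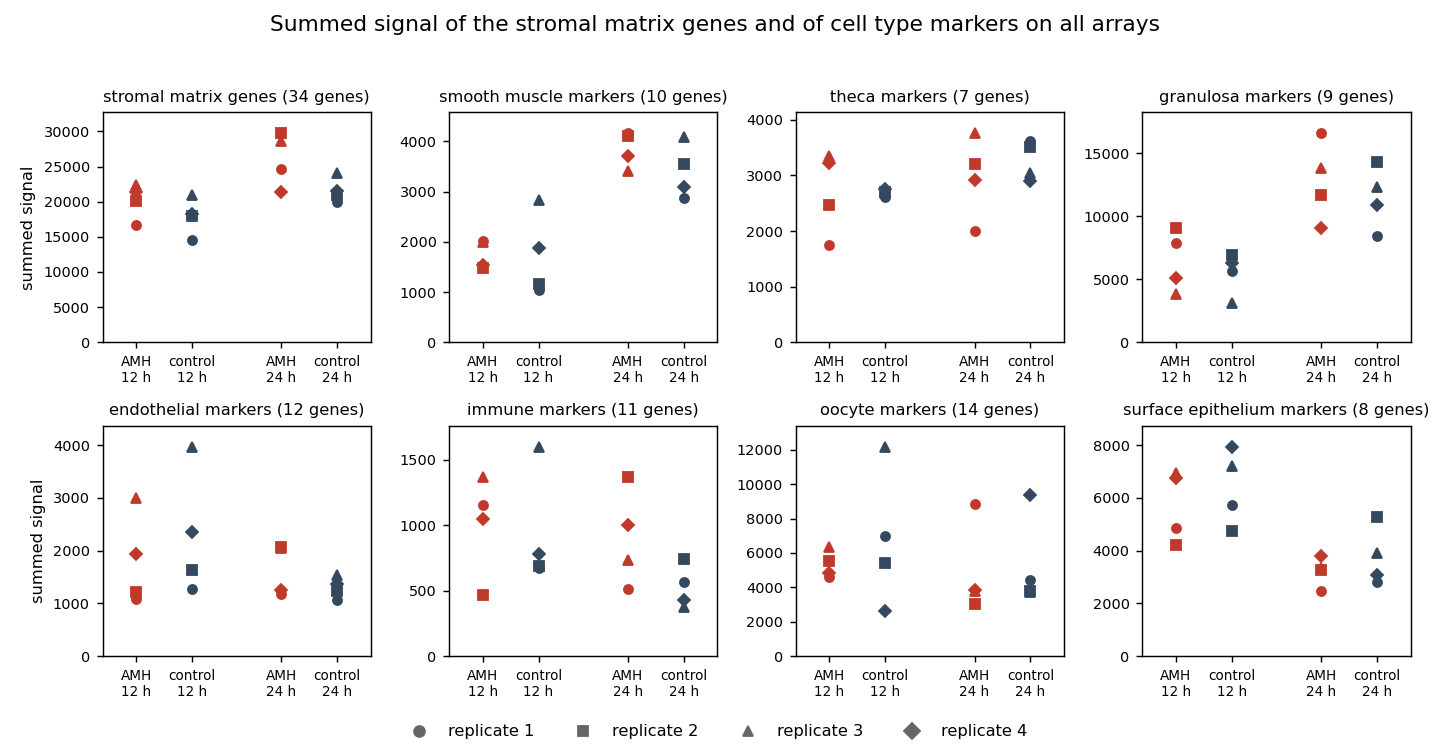
Summed signal of the 34 stromal matrix genes with a probe set and of 7 sets of cell type markers on each of the 16 arrays, with AMH in red left of control in blue at 12 h and at 24 h, and replicate numbers by symbol. Smooth muscle and granulosa sums sit higher at 24 h with no overlap of the times in either arm. Stromal sums tend higher at 24 h with overlap in both arms, and surface epithelium sums tend lower with overlap in controls. The oocyte sums stand highest on the 3 arrays named as oocyte-rich.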

How the data were processed

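RNA from 16 samples, 4 per group, was hybridised to Affymetrix mouse arrays after amplification of 5 ng each. Per the submitters' processing notes, the authors used MAS5 to make the deposited signal intensities, which are on a linear scale (version not given in the sources used here). With 2% trimmed at each end, the trimmed mean of every array was about 150, so scaling preceded deposit. Detection calls were not used here. The 4 arrays per group limit the precision. For AMH, p-values measure how the AMH minus control difference varied from pair to pair. Over time, they measure the spread between arrays of a group, which came from different pools of follicles.

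The log2 scale was log2(signal + 1.46), with the 10th percentile of all signals as the offset. The table had 45101 probe sets, including 64 controls that were dropped. GEO's platform annotation gave 34945 of the rest 1 gene symbol, 932 several and 9160 none. The filter required a mean of log2 4.18 (signal 16.6, the 40th percentile). The brightest remaining probe set represented each of 12172 genes. Limma 3.58.1 in R 4.3.3 fitted the models with a variance trend, and p-values were adjusted by Benjamini-Hochberg over all genes at 0.05. For AMH, the 8 pairs formed a block, because by the labels' protocols both arms were allocated from one pool. For pairs 1 to 4, the deviations of both arrays from their group means had correlations of 0.299, 0.349, 0.56 and 0.214 (12 h) and of -0.437, 0.327, 0.2 and -0.287 (24 h). Times were compared between 4 group means. The code was tested on simulated data.

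The genes and all lists were chosen with earlier results of these data known, so no pattern over them is independent evidence. Values per array are given for genes past the threshold (at most 8 per comparison by smallest p), for the 8 smallest p-values in the mean AMH effect and for the 3 smallest in each other AMH comparison. At most 4 called genes per comparison are named from other lists, and further genes were named after their values were seen. Alternatives covered the offset, filter, scaling, probe sets, moderation, array weights, blocks, arrays in the fit and single replicates. Omitting 3 oocyte-rich arrays (and their partners for AMH), and an oocyte covariate, were chosen after seeing the data. Plots were made with Python 3.11.15 and matplotlib 3.10.9.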

Additional observations from a re-analysis of the deposited data

Results flagged for a closer look

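In each group of 4 arrays, the gap between the most extreme array and its neighbour was divided by the range of the group. Over 124 groups (31 genes in 4 groups), 10 such ratios exceeded Dixon's critical value for 4 arrays, where chance gives about 1 in 20 groups. With AMH at 24 h, replicate 4 stood low for 3 genes. Dcn was at a log2 signal of 9.45 with the nearest array at 10.4 (ratio 0.875), Col1a2 at 10.6 with the nearest at 11.2 (ratio 0.968), and Eln at 5.29 with the nearest at 5.67 (ratio 0.862). In the same group, replicate 1 was low for Lox, at 3.80 with the nearest at 5.76 (ratio 0.902), and high for Mfap2, at 8.40 with the nearest at 7.46 (ratio 0.893). Among the AMH arrays at 12 h, replicate 3 was high for Ogn, at 6.62 with the nearest at 5.67 (ratio 0.945).

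Of the control arrays at 12 h, replicate 3 stood apart for 3 genes, and it was also the array with the highest oocyte mean, 9.28. Col6a3 was high there at 8.97 with the nearest at 8.14 (ratio 0.953), Sparc was high at 11.8 with the nearest at 11.6 (ratio 0.843), and Fbln1 was low at 8.29 with the nearest at 10.3 (ratio 0.854). Among the controls at 24 h, replicate 3 was high for Col1a2, at 11.1 with the nearest at 10.6 (ratio 0.831).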

How the results depend on the processing

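No called gene changed direction under the alternatives run. For AMH at 12 h, the count of all genes called, 0, became 1 with quantile normalization, 3 with array weights, 2 with the oocyte mean as a covariate and 14 without the oocyte-rich arrays, where 1 of the 31 genes was called (Dcn, 0.68, limma adjusted p = 0.05). At 24 h, the 2 genes called became 7 with array weights, 0 with no filter, quantile normalization, all probe sets averaged, only the arrays of that time or no oocyte-rich arrays, and 0 to 1 with a replicate left out. In the mean of both times, 0 became 6 with array weights, 3 without the oocyte-rich arrays and 0 to 1 with a replicate left out, and the genes of the list called were 2 (Col6a2 and Dcn), 1 and 0 to 1. For the difference between the AMH effects, 0 became 1 with quantile normalization, 21 with array weights, 2 with the oocyte covariate and 0 to 1 with a replicate left out, with 0 of the 31. Over time with AMH, 1008 genes became 567 with median centring, 1857 with array weights and 344 to 638 with a replicate left out, when 2 to 4 of the 31 were called. Over time in controls, 2330 genes became 3945 with array weights and 1185 to 1552 with a replicate left out, when 3 to 10 of the 31 were called. The cause of these shifts was not tested, except that leaving out a replicate means fewer arrays in the fit.

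Without the pair block, AMH calls were 0 of 31 at both times and in the mean, and 0 of all genes at 24 h. With the replicate block over time, 9 genes were higher with AMH (Col6a2 and Pdgfra added), and 12 were higher and 2 lower in controls (Col6a2 and Col6a3 added), and no call was lost. Median centring moved the median of all genes to 0.12 for AMH at 24 h. The 4 arrays per group limit what these comparisons can show.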
